A study of Lachancea kluyveri with 16 samples.

Results

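The genes described here are those with far higher signal on arrays labelled YPGly than on arrays labelled YPD in both strains of the yeast *Lachancea kluyveri*. A gene was taken when its mean log2 value was higher by 3 or more where labelled YPGly in SEF1-VP16 and also in WT, on the brighter of its probes in the authors' table of log2 values, and SAKL0F09108g, annotated as similar to ALD5, was left out by the rule. Of 5316 genes with a probe, 13 met it, and all 13 were among the 5266 genes that passed the filter on dim probes. Because the values of both media chose these genes, their difference between media is given as a description, with no test. The comparison of the strains was not used in the choice and was tested.

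Transcripts were measured on 16 single-colour arrays, 4 in each of 4 groups, which the labels call biological repeats: SEF1-VP16 in YPGly, WT in YPGly, SEF1-VP16 in YPD and WT in YPD. YPD is a rich medium with glucose and YPGly the same base with glycerol in its place. Both strains were MATa ura3. WT was JYL1897, and SEF1-VP16 was SkSef1VP16NB10-1, 1 derivative of it in which the chromosomal gene for the transcription factor Sef1 was joined to an activation domain from a herpesvirus protein, VP16, with an FRT site left behind. Cells from overnight YPD cultures at 28 °C were put at 0.2 OD600 per ml into either medium and harvested after 5.5 h at 30 °C. Each array held RNA of a whole culture, so a larger share of cells with a transcript and more transcript per cell cannot be told apart.

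The arrays were alike in the share of gene probes well above background, 94.5% to 99.95%, but not in brightness. The 75th percentile of the processed signal in WT was 20236 to 24035 where labelled YPGly and 10998 to 17768 where labelled YPD. In SEF1-VP16 it was 12423 to 21070 and 12291 to 19046. Spots flagged as outliers numbered 0 to 77 an array. The 8 arrays labelled YPGly shared 1 slide and the 8 labelled YPD another, and the strains took separate rows of each slide, so an effect of the medium cannot be told apart from one of the slide, nor one of the strain from one of the row. Markers of growth without glucose were checked against the labels. Of 12 loci named JEN1, ADY2, ICL1, MLS1, PCK1, FBP1, ACS1, GUT1, GUT2 or STL1, which glucose represses in *Saccharomyces cerevisiae*, 10 were lower where labelled YPGly and 1, a JEN1 locus, was higher, in SEF1-VP16 (−9.14 to 3.86 on the log2 scale) and in WT (−9.43 to 2.63). Of 4 loci named HXT1, HXT3 or HXT4, hexose transporters that glucose induces there, 2 were lower and 1 was higher there in each strain. In the study's list of Sef1-bound genes, SEF1-VP16 raised ALD5 (SAKL0F09108g) by 1.5-fold or more in YPD only, and GPD1 (SAKL0C07502g) in YPGly only. Here ALD5 was higher in SEF1-VP16 by 0.70 where labelled YPGly and 0.11 where labelled YPD. GPD1 averaged 3.524 in SEF1-VP16 and 3.257 in WT where labelled YPGly, and 2.965 and 2.306 where labelled YPD. A UGA4 locus on that list (SAKL0G14762g) was raised more in YPGly than in YPD in the study. Here it averaged −1.908 in SEF1-VP16 and −3.412 in WT where labelled YPGly, and −0.6029 and −3.299 where labelled YPD. For each of these genes, the media names are the reverse of the study's. Whether labels were exchanged was not tested. Every direction between media below therefore rests on the labels as given, and none is read as a response to glycerol.

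Several of the 13 genes serve the uptake and use of nitrogen. In *S. cerevisiae*, permeases and enzymes for poor nitrogen sources are held down while good sources such as glutamine are plentiful, and GATA-type activators transcribe them once these run short. Ammonium taken up is joined to carbon skeletons to give glutamate and glutamine, from which other nitrogen compounds are made. Other members belong to carbon use, inositol uptake and methyl group metabolism. Gene names are those of the *S. cerevisiae* orthologs in the annotation of the study, and roles are those known there.

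Levels are log2 of the processed signal relative to the 75th percentile of the array, so 0 is the signal of a probe at that percentile. Levels of different genes come from different probes and were not compared. Per-array values are given in the order of replicates 1 to 4.

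**Figure D1:**
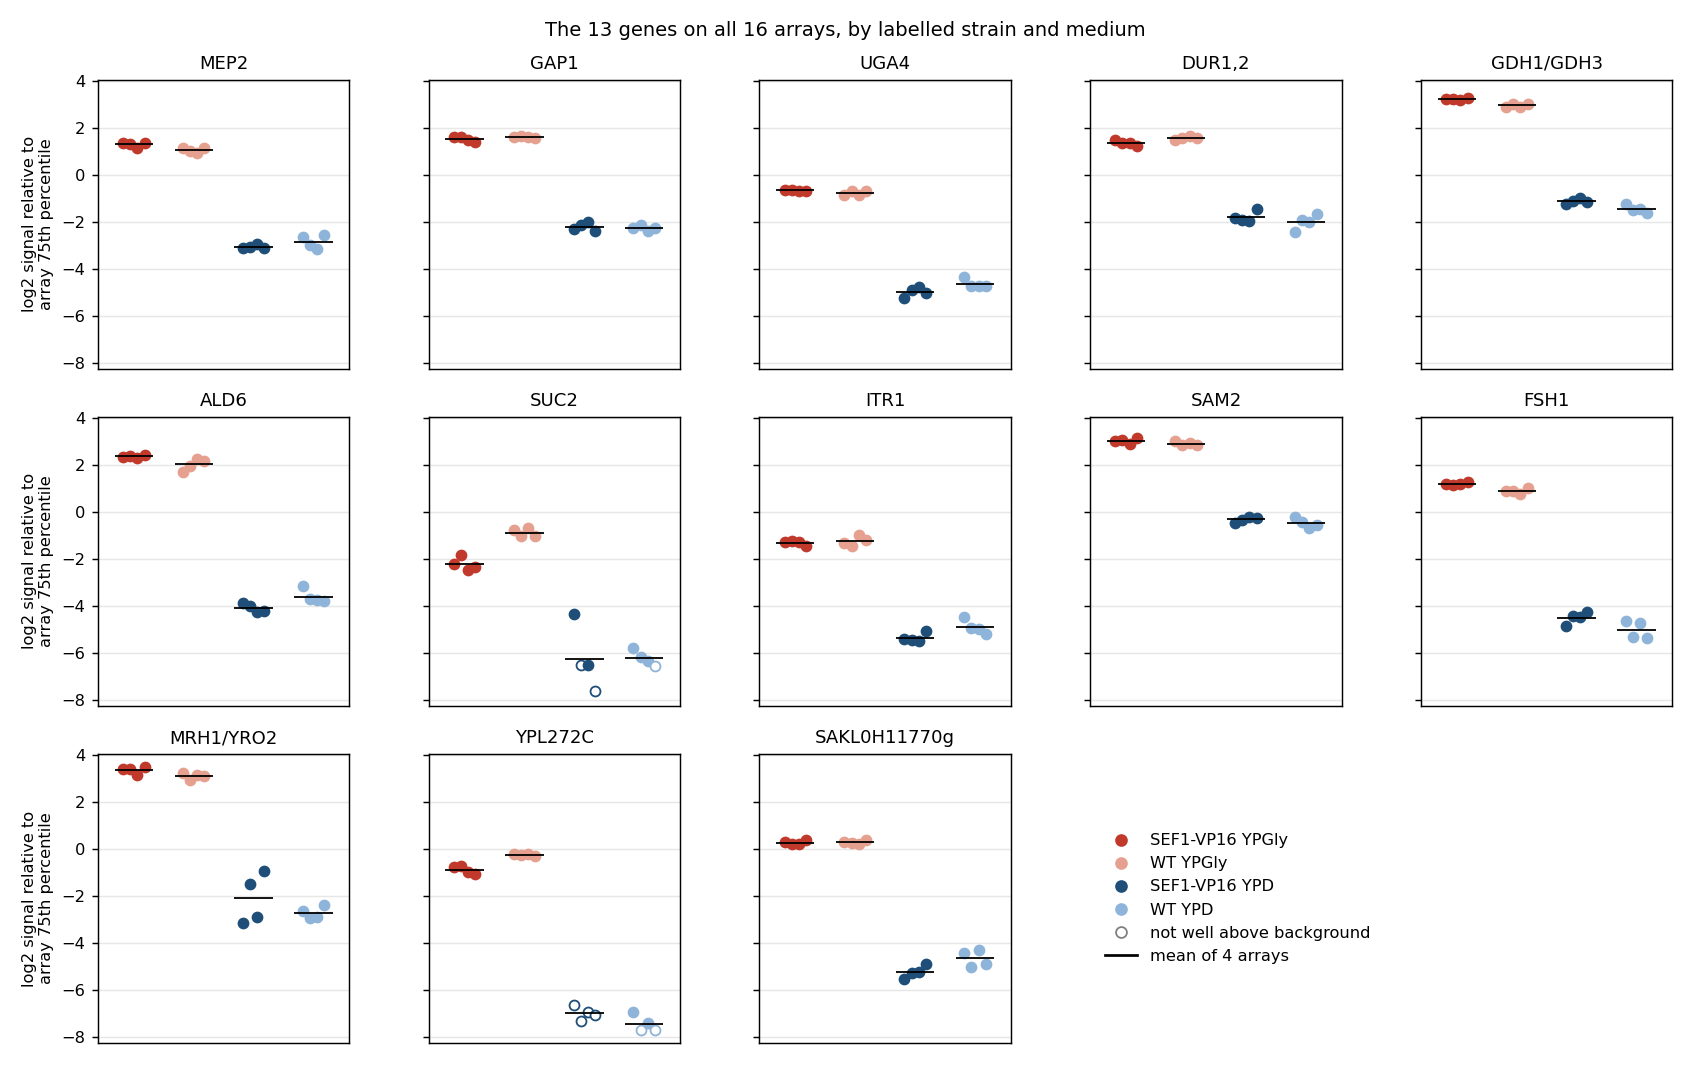
Normalised log2 signal of the 13 genes (vertical axis, relative to the 75th percentile of each array) on the 4 arrays of each group, with the group mean as a line and open circles for spots not well above background. In every panel the arrays labelled YPGly sit above all arrays labelled YPD, and the spread is widest for SUC2 and MRH1/YRO2 in SEF1-VP16 labelled YPD.

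MEP2 (SAKL0E12254g), an ammonium permease of high affinity, had levels of 1.36, 1.28, 1.15 and 1.35 in SEF1-VP16 and 1.11, 0.98, 0.94 and 1.15 in WT where labelled YPGly. Where labelled YPD it had −3.10, −3.08, −2.94 and −3.14 in SEF1-VP16 and −2.64, −3.01, −3.18 and −2.55 in WT. The 8 arrays labelled YPGly all lay above the 8 labelled YPD, and within each medium the strains lay within less than 1 log2 unit of each other. The difference between media was 4.35 in SEF1-VP16 (20.4-fold) and 3.89 in WT (14.8-fold), on the log2 scale. GAP1 (SAKL0D04664g), the general amino acid permease, was as steady: its 4 arrays gave 1.62, 1.59, 1.49 and 1.40 in SEF1-VP16 and 1.59, 1.64, 1.58 and 1.54 in WT where labelled YPGly. Its levels where labelled YPD were −2.29, −2.15, −2.0 and −2.38 in SEF1-VP16 and −2.28, −2.14, −2.40 and −2.29 in WT. The strains overlapped in both media, and the media differed by 3.73 in SEF1-VP16 (13.3-fold) and 3.86 in WT (14.5-fold).

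UGA4 (SAKL0E14806g) encodes a permease for GABA, an amino acid that yeast can use as a nitrogen source. It averaged −0.67 ± 0.04 in SEF1-VP16 and −0.78 ± 0.10 in WT where labelled YPGly, and −4.99 ± 0.20 in SEF1-VP16 and −4.64 ± 0.19 in WT where labelled YPD (SD, n = 4 each here and below). Between media UGA4 differed by 4.32 in SEF1-VP16 and 3.86 in WT. DUR1,2 (SAKL0H10560g), the urea amidolyase that releases ammonia from urea, averaged 1.34 ± 0.10 in SEF1-VP16 and 1.55 ± 0.07 in WT where labelled YPGly, and −1.80 ± 0.22 in SEF1-VP16 and −2.02 ± 0.32 in WT where labelled YPD. DUR1,2 had the smallest difference of the 13 genes in SEF1-VP16, 3.15 (8.87-fold), and had 3.57 in WT (11.9-fold).

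SAKL0D14982g matches both GDH1 and GDH3, a duplicate pair of *S. cerevisiae* that encodes the NADP-dependent glutamate dehydrogenase, which makes glutamate from ammonium. GDH1/GDH3 had levels of 3.23, 3.21, 3.17 and 3.25 in SEF1-VP16 and 2.90, 2.98, 2.89 and 2.99 in WT where labelled YPGly. Where labelled YPD it had −1.23, −1.12, −1.01 and −1.16 in SEF1-VP16 and −1.26, −1.52, −1.45 and −1.65 in WT. The strains did not overlap in either medium, and SEF1-VP16 was the higher in both. The difference between media was 4.34 in SEF1-VP16 and 4.41 in WT, and the spread about the group means was the smallest of the 13 genes (residual SD 0.10).

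ALD6 (SAKL0H10252g) encodes a cytosolic aldehyde dehydrogenase that turns acetaldehyde into acetate. Its levels were 2.31, 2.37, 2.3 and 2.42 in SEF1-VP16 and 1.70, 1.96, 2.23 and 2.16 in WT where labelled YPGly, against −3.90, −4.01, −4.26 and −4.22 in SEF1-VP16 and −3.16, −3.71, −3.75 and −3.81 in WT where labelled YPD. SEF1-VP16 lay above WT where labelled YPGly and below it where labelled YPD, with no overlap in either medium. Between media ALD6 differed by 6.45 in SEF1-VP16 (87.4-fold) and 5.62 in WT (49.2-fold). The ALD5-like gene that the rule left out had a difference of the same order, 6.57 in SEF1-VP16 and 5.97 in WT. ALD4 (SAKL0D14806g) differed the other way, by −2.28 in SEF1-VP16 and −2.27 in WT. These 2 were looked up after the values of ALD6 were seen and were given no test.

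SUC2 (SAKL0B00220g) encodes invertase, which splits sucrose outside the cell. It had levels of −2.21, −1.84, −2.46 and −2.35 in SEF1-VP16 and −0.79, −1.03, −0.67 and −1.04 in WT where labelled YPGly. Where labelled YPD it had −4.36, −6.50, −6.52 and −7.63 in SEF1-VP16 and −5.80, −6.18, −6.37 and −6.58 in WT. The 4 arrays of SEF1-VP16 labelled YPD spanned over 3 log2 units, with replicate 1 high and replicate 4 low, and the spot was well above background on 2 of these 4 and on 3 of the 4 of WT labelled YPD. SUC2 had the largest residual SD of the 13 genes, 0.72. Between media the measured difference was 4.04 in SEF1-VP16 and 5.35 in WT, and no fold is given because of the dim spots. Leaving out 1 array at a time gave 3.58 to 4.67 in SEF1-VP16 and 5.23 to 5.49 in WT. The other probe of SUC2 gave 3.16 in SEF1-VP16 and 4.82 in WT.

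ITR1 (SAKL0C11066g), a transporter of myo-inositol, a building block of phospholipids, averaged −1.32 ± 0.10 in SEF1-VP16 and −1.24 ± 0.21 in WT where labelled YPGly, and −5.35 ± 0.20 in SEF1-VP16 and −4.91 ± 0.31 in WT where labelled YPD. SAM2 (SAKL0C01870g) encodes a synthetase of S-adenosylmethionine, the main methyl donor of the cell. SAM2 averaged 3.02 ± 0.10 in SEF1-VP16 and 2.90 ± 0.08 in WT where labelled YPGly, and −0.33 ± 0.12 in SEF1-VP16 and −0.48 ± 0.21 in WT where labelled YPD. ITR1 differed between media by 4.03 in SEF1-VP16 and 3.67 in WT, and SAM2 by 3.34 in SEF1-VP16 and 3.38 in WT, the last being the smallest of the 13 genes in WT (10.4-fold).

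The remaining members are less well known. FSH1 (SAKL0G10780g), a serine hydrolase, had levels of 1.16, 1.12, 1.18 and 1.28 in SEF1-VP16 and 0.88, 0.89, 0.77 and 0.99 in WT where labelled YPGly, against −4.85, −4.45, −4.46 and −4.28 in SEF1-VP16 and −4.66, −5.32, −4.73 and −5.39 in WT where labelled YPD. The difference between media was 5.69 in SEF1-VP16 (51.8-fold) and 5.91 in WT (60.0-fold). SAKL0D03652g matches MRH1 and YRO2, a duplicate pair of membrane proteins. MRH1/YRO2 was even between replicates in 3 groups but not in SEF1-VP16 labelled YPD, where its levels were −3.13, −1.48, −2.89 and −0.93, so that replicates 2 and 4 lay over 1 log2 unit above the others. Its means were 3.36 ± 0.14 in SEF1-VP16 and 3.09 ± 0.13 in WT where labelled YPGly, and −2.11 ± 1.07 in SEF1-VP16 and −2.72 ± 0.25 in WT where labelled YPD. In this group SUC2 was highest on replicate 1 and lowest on replicate 4, while MRH1/YRO2 was lowest on replicate 1 and highest on replicate 4.

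SAKL0E00792g matches YPL272C, a gene of *S. cerevisiae* with no known function. YPL272C had levels of −0.77, −0.71, −0.99 and −1.06 in SEF1-VP16 and −0.20, −0.27, −0.22 and −0.31 in WT where labelled YPGly. Where labelled YPD it had −6.65, −7.30, −6.95 and −7.07 in SEF1-VP16 and −6.95, −7.68, −7.42 and −7.70 in WT, and the spot was not well above background on any of the 4 arrays of SEF1-VP16 or on 2 of the 4 of WT. In SEF1-VP16 it was therefore at least 43.0-fold higher where labelled YPGly, the mean of the bright arrays set against the lowest signal well above background on each dim array. The measured means were −0.88 ± 0.17 labelled YPGly and −6.99 ± 0.27 labelled YPD. In WT, with 2 of the 4 spots labelled YPD not well above background, the measured means were −0.25 ± 0.05 labelled YPGly and −7.44 ± 0.35 labelled YPD, and no fold is given.

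SAKL0H11770g, annotated as a conserved hypothetical protein, had levels of 0.28, 0.22, 0.20 and 0.37 in SEF1-VP16 and 0.28, 0.26, 0.22 and 0.38 in WT where labelled YPGly. The strains overlapped throughout there. Where labelled YPD it had −5.54, −5.28, −5.24 and −4.90 in SEF1-VP16 and −4.41, −5.04, −4.28 and −4.90 in WT, so most arrays of WT were the higher. Its media differed by 5.50 in SEF1-VP16 and 4.94 in WT.

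Over the 13 genes the median difference between media was 4.34 in SEF1-VP16 and 4.41 in WT, beside 0.13 and 0.15 over all genes tested, as the choice of genes requires. The gap between the lowest array labelled YPGly and the highest labelled YPD was narrowest for SUC2 in SEF1-VP16 (1.90) and for ITR1 in WT (3.01). Arrays labelled YPGly lay wholly above those labelled YPD for 40.2% of all genes tested in SEF1-VP16 and 36.3% in WT. The second probe of each of the 13 genes gave a difference of 3.16 to 7.31 in SEF1-VP16 and 3.31 to 6.55 in WT. For FSH1 it gave 5.35 in SEF1-VP16 and 6.15 in WT, farther apart than on the brighter probe. The difference in SEF1-VP16 minus that in WT was taken on the brighter probe, for the 11 genes well above background on every array. It ran from −0.42 for DUR1,2 to 0.83 for ALD6, with 5 above 0. The measured value for SUC2 was −1.31, with some of its spots labelled YPD not well above background, and none is given for YPL272C, whose difference in SEF1-VP16 is only bounded. These values were not tested, since both of their parts chose the genes.

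The threshold cut through a continuous range. Just inside it, the differences in the authors' table were 3.15 in SEF1-VP16 and 3.57 in WT for DUR1,2, and 3.34 in SEF1-VP16 and 3.38 in WT for SAM2. Just outside it were SAKL0H23584g with 2.92 in SEF1-VP16 and 3.16 in WT, SAKL0E12606g with 2.91 and 2.94, and the adenine deaminase gene AAH1 (SAKL0E12122g) with 2.91 and 2.95. Of the 5 genes at 3 or more in only 1 strain, ADH4 (SAKL0C13926g) was farthest apart, at 4.70 in SEF1-VP16 and 2.81 in WT. The others were a JEN1 locus (SAKL0D04510g) and SAKL0A00770g, past it in SEF1-VP16, and SEO1 (SAKL0A02926g) and SAKL0H23584g, past it in WT. In the opposite direction 81 genes differed by 3 or more in both strains.

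**Figure D2:**
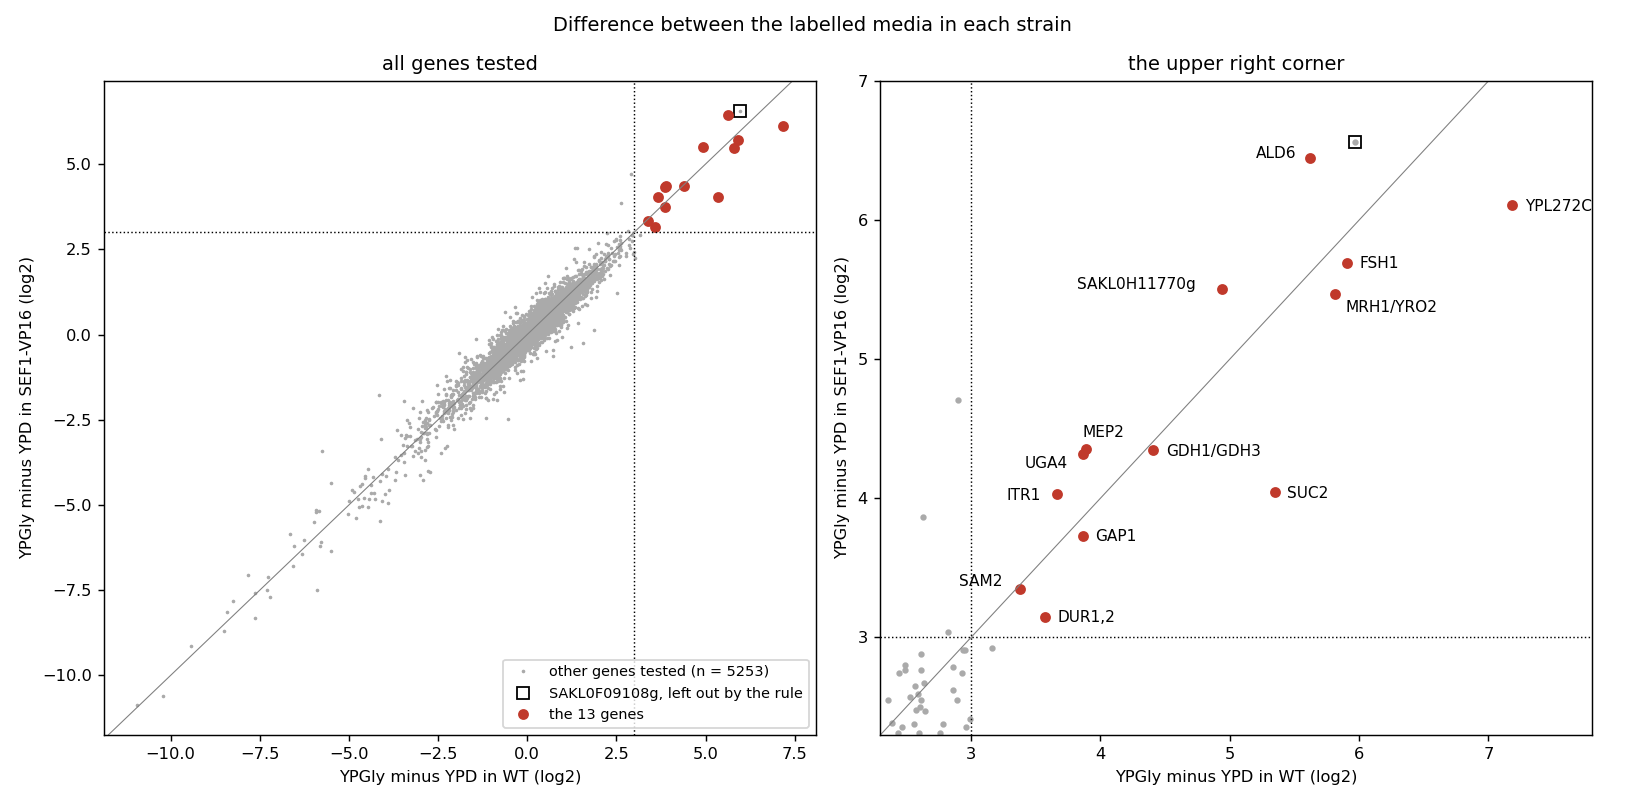
Difference between the labelled media (log2) in SEF1-VP16 (vertical axis) against WT (horizontal axis), for all 5266 genes tested on the left and enlarged on the right, with dotted lines at the threshold of 3. ALD6 lies above the diagonal by 0.83 and DUR1,2 below it, at −0.42, while SUC2 and YPL272C are drawn at measured values that include spots labelled YPD not well above background, so their distance from the diagonal is not fixed.

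The strains were compared within each labelled medium to ask whether these genes moved with the fusion to VP16. A gene was called when its Benjamini-Hochberg adjusted p over all 5266 genes was 0.05 or less and the change at least 1.5-fold, in limma fitted to all 16 arrays. Where labelled YPGly, 1 of the 13 genes was called, YPL272C, which fell by 0.63 on the log2 scale in SEF1-VP16 (SE 0.16, adjusted p = 0.0257). Of all genes tested, 0.684% were called lower and 1.61% higher there. The change of YPL272C lay close to the 1.5-fold limit. The call was lost without WT YPGly replicate 1, 2 or 3 (adjusted p = 0.0719, 0.0557 and 0.0696), and without SEF1-VP16 YPGly replicate 3 or 4 (adjusted p = 0.0764 and 0.0949). The direction held in all 28 alternative fits (−0.93 to −0.57, adjusted p from 0.000697 to 0.123), of which 21 called it.

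SUC2 had the largest estimate of the 13 genes where labelled YPGly, −1.33 ± 0.45 (SE), and was not called (adjusted p = 0.0887). The 4 arrays of SEF1-VP16 all lay below the 4 of WT. The fit to all arrays takes its error also from the wide SEF1-VP16 arrays labelled YPD, and limma fitted to the 8 arrays labelled YPGly alone called SUC2 (adjusted p = 0.00108), where it called 0.968% of all genes lower. SUC2 was also called in the fit to all other arrays without SEF1-VP16 YPD replicate 1 and in that without SEF1-VP16 YPD replicate 4. Over the 28 alternative fits the adjusted p of SUC2 ran from 0.00108 to 0.207, and the estimate from −1.45 to −1.25.

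For the other 11 genes where labelled YPGly, estimates ran from −0.21 for DUR1,2 to 0.34 for ALD6, with adjusted p from 0.0629 for GDH1/GDH3 to 0.969 for SAKL0H11770g. The 4 arrays of each strain did not overlap for 7 of the 13 genes, namely ALD6, FSH1, GDH1/GDH3 and MEP2, higher in SEF1-VP16, and DUR1,2, SUC2 and YPL272C, lower. The same was true of 25.3% of all genes tested. The median absolute difference between strains was 0.24 over the 13 genes and 0.14 over all genes tested.

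Where labelled YPD, limma called 0 of the 13 genes, beside 2.11% of all genes tested in either direction. At an unadjusted p under 0.05 there were 7 by limma, beside 20.5% of all genes tested, and 4 by the methods' t-test, the one the study names, beside 11.7%. Where labelled YPGly these counts were 4 by limma, beside 21.4%, and 8 by the methods' t-test, beside 32%. SAKL0H11770g came nearest to a call where labelled YPD, at −0.58 ± 0.15 (SE, adjusted p = 0.0382), just under 1.5-fold. It was called lower without WT YPD replicate 2 or 4 (−0.71 and −0.66) and without SEF1-VP16 YPD replicate 4 (−0.69). GDH1/GDH3 had an adjusted p of 0.0289 at an estimate of 0.34 ± 0.08. Those 2 were the only ones with an adjusted p of 0.05 or less, beside 5.34% of all genes tested. FSH1 (0.52 ± 0.15, adjusted p = 0.063) was called higher when replicate 1 or 3 of WT labelled YPD (0.64 and 0.61), or replicate 1 of SEF1-VP16 there (0.63), was left out. It was also called higher on its other probe and with normexp background correction. Over the 28 alternative fits its estimate ran from 0.40 to 1.14.

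ALD6 had −0.49 ± 0.14 where labelled YPD (adjusted p = 0.0567), and UGA4 had −0.35 ± 0.11 (adjusted p = 0.07). These were, with GDH1/GDH3, the 3 genes whose strains did not overlap in this medium, beside 7.99% of all genes tested. On its other probe ALD6 was called lower in SEF1-VP16. MRH1/YRO2 had an estimate of 0.61 ± 0.35 (adjusted p = 0.338), which was 0.22 without SEF1-VP16 YPD replicate 4, 0.40 without replicate 2 and 0.95 without replicate 1 of that group, and 0.25 with array weights. The estimate for YPL272C, 0.44, compares spots that were mostly not well above background, has no fold, and had the opposite sign on the other probe (−0.49), so no strain difference is read from it. SUC2, with the wide SEF1-VP16 arrays, had −0.02 ± 0.45.

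Averaged over both labelled media, limma called 0 of the 13 genes, beside 1.46% of all genes tested. An unadjusted p under 0.05 was reached by 5, beside 26.9% of all genes tested. GDH1/GDH3 (0.31 ± 0.06, adjusted p = 0.00366) and FSH1 (0.41 ± 0.11, adjusted p = 0.0241) were higher in SEF1-VP16 by less than 1.5-fold, and 10.8% of all genes tested had such an adjusted p at any size of change. On its other probe FSH1 was called higher, and over the 26 alternative fits its estimate ran from 0.35 to 0.74. Without SEF1-VP16 YPD replicate 1, SUC2 was called lower in this comparison.

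**Figure D3:**
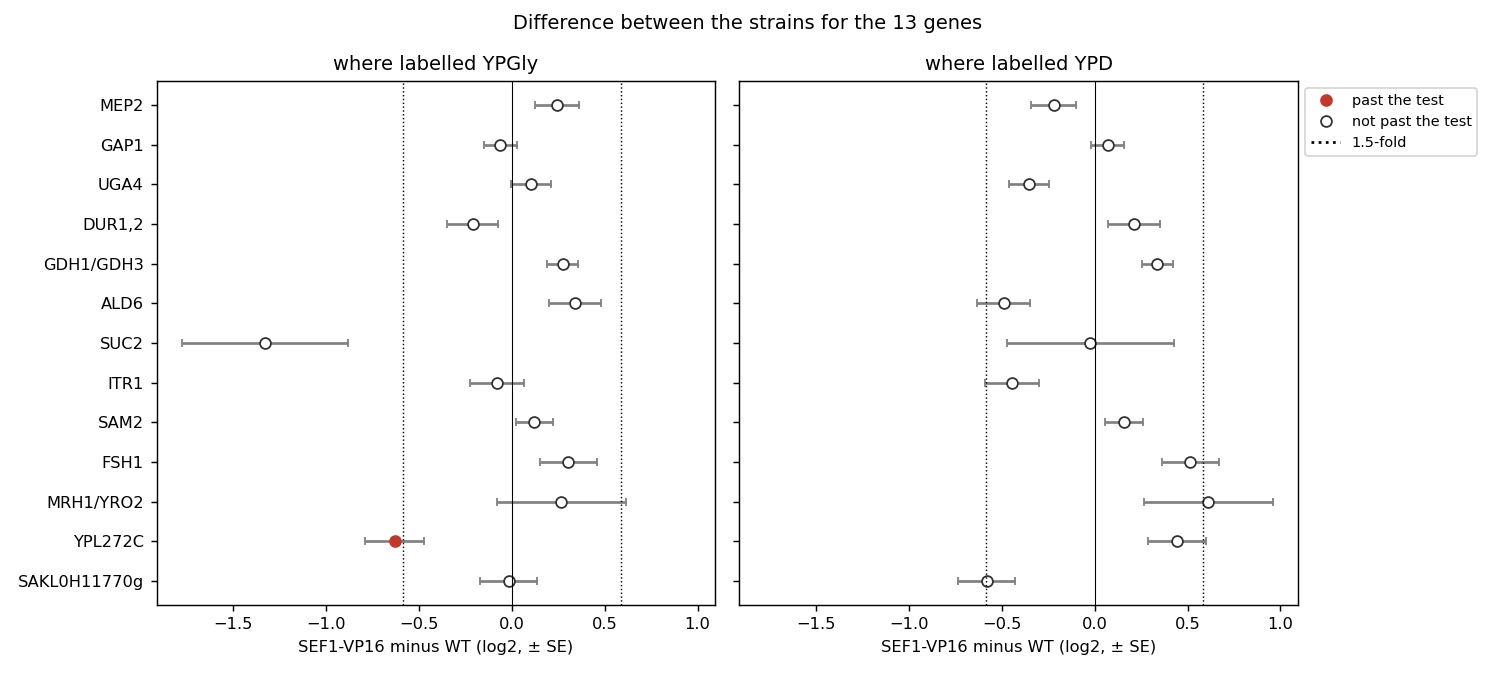
Difference between the strains, SEF1-VP16 minus WT (log2, horizontal axis, with SE), for each of the 13 genes where labelled YPGly on the left and YPD on the right; a filled point passed the test and dotted lines mark 1.5-fold. Only YPL272C where labelled YPGly passed, at −0.63, while SUC2 lies farther left at −1.33 with a wider error; YPL272C where labelled YPD is drawn from spots mostly not well above background.

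To see whether related genes differed between media in the same way, lists of genes of the same pathways were set beside the members. The members were chosen by the medium values. The lists were drawn up by pathway, but with earlier results of these data known. Calls and adjusted p-values by limma for the other genes of the lists are therefore given as a description. In the list of amino acid and nitrogen transport, which holds MEP2, GAP1 and UGA4, the other 23 genes were called higher in 4 cases and lower in 5 in SEF1-VP16, and 6 higher and 6 lower in WT. Of all genes tested, 26.6% were called higher and 19.9% lower in SEF1-VP16, and 27.4% higher and 20.5% lower in WT. The other ammonium permease gene, MEP1 (SAKL0F03278g), was higher where labelled YPGly by 1.60 in SEF1-VP16 (adjusted p = 3.14e-10) and by 1.57 in WT (adjusted p = 3.9e-10), and the oligopeptide transporter gene OPT1 by 2.38 and 2.39. The permease genes DIP5, for acidic amino acids, and PUT4, for proline, were lower, by −1.39 and −1.77 in SEF1-VP16 and by −1.96 and −1.92 in WT.

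Other loci with the name of UGA4, SUC2 or ITR1 were not members, so the rule itself held each below 3 in at least 1 strain. Their values are given as a description. The 2 other loci named UGA4 had −1.31 (SAKL0G14762g) and 0.38 (SAKL0G15136g) in SEF1-VP16 and −0.11 and 0.79 in WT, while the member had 4.32 in SEF1-VP16 and 3.86 in WT. SAKL0G14762g was also the one that differed between strains, by 1.5 where labelled YPGly and 2.70 where labelled YPD (adjusted p = 3.2e-05 and 2.48e-08), whereas the member was not called in either. The 2 other loci named SUC2 had 0.84 (SAKL0F01122g) and 0.19 (SAKL0D11946g) in SEF1-VP16 and 0.85 and −0.19 in WT. The 3 other loci named ITR1 lay between −0.78 and 0.58 in SEF1-VP16 and between −0.61 and 1.00 in WT. None of the probes used for the 13 genes is listed by the array design as cross-hybridising.

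In the list of alpha-glucoside and sucrose use, which holds SUC2, 6 of the other 8 genes were lower and 1 was higher where labelled YPGly in each strain, with medians of −4.02 in SEF1-VP16 and −2.75 in WT. Over all genes tested, 19.9% were called lower and 26.6% higher in SEF1-VP16, and 20.5% and 27.4% in WT. The maltose permease gene MAL11 (SAKL0A05676g) had −8.32 in SEF1-VP16 (adjusted p = 3.75e-15) and −7.62 in WT (adjusted p = 9.29e-15). SUC2 thus stood opposite to the isomaltase and maltose permease genes between media. Between strains where labelled YPGly, 5 of the 8 were lower in SEF1-VP16, with a median of −0.81, beside 0.684% of all genes tested, and where labelled YPD the estimates of the 8 lay between −0.19 and 0.29. The 5 were MAL11 and 4 isomaltase genes, from −0.74 (SAKL0A05698g, adjusted p = 0.00245) to −1.40 (SAKL0A00154g, adjusted p = 0.000107), in the direction of the uncalled estimate of SUC2. Neither other locus named SUC2 was among them. Their means where labelled YPGly were 4.61 in SEF1-VP16 and 4.323 in WT for SAKL0D11946g, and −2.453 and −2.437 for SAKL0F01122g.

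In the list of phosphate and sulfur uptake, which holds SAM2, the other 17 genes included 6 called higher and 4 lower in SEF1-VP16, and 6 higher and 5 lower in WT. For this list and the next, the shares of all genes tested were 26.6% higher and 19.9% lower in SEF1-VP16, and 27.4% and 20.5% in WT. Those called higher held MET6 (SAKL0F12100g), the methionine synthase gene that makes the substrate of SAM2, at 1.94 in SEF1-VP16 and 1.86 in WT, and MET10, MET14, MET17 and MET28, of sulfate assimilation and its control, at 1.11 to 1.56 in SEF1-VP16 and 1.01 to 1.51 in WT. The acid phosphatase gene PHO3 was higher by 2.62 in SEF1-VP16 and 2.86 in WT, and MET2 was lower by −1.66 and −1.45. In the list of glycolysis and fermentation, which holds ALD6, the other 21 genes included 10 called higher and 4 lower in SEF1-VP16, and 2 higher and 5 lower in WT. Whether those counts differ was not tested. ADH5 (SAKL0H00374g), an alcohol dehydrogenase gene, was lowest, at −4.82 in SEF1-VP16 and −4.44 in WT, and no other gene of that list came within 4 log2 units of ALD6.

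**Figure D4:**
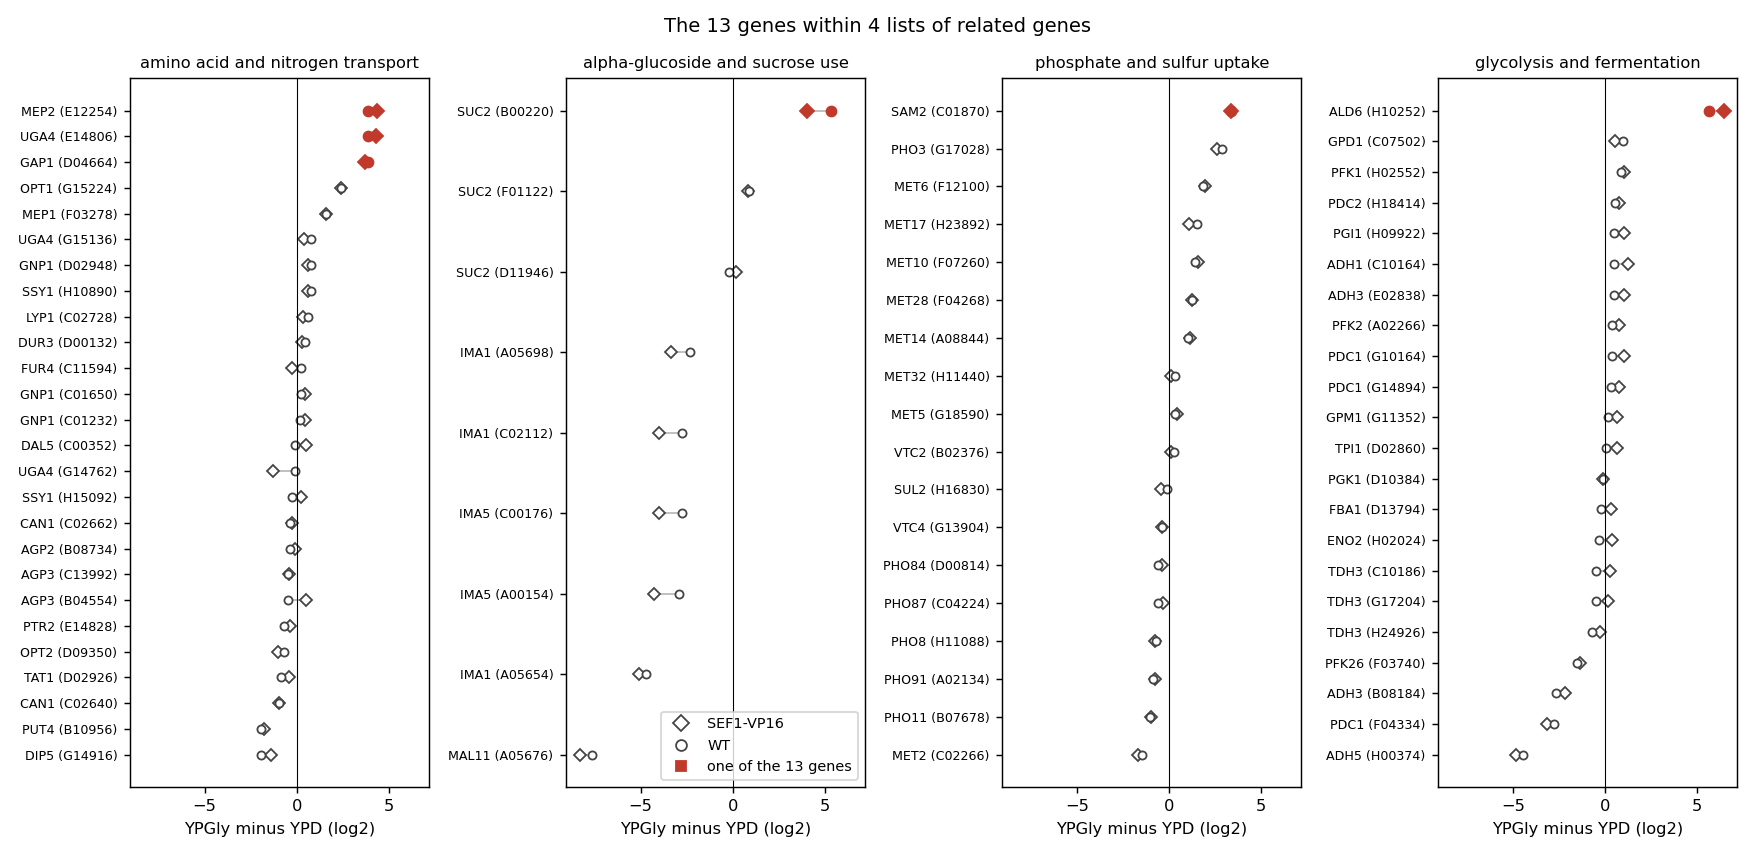
Difference between the labelled media (log2, horizontal axis) in SEF1-VP16 (diamonds) and WT (circles) for every gene tested in 4 lists of related genes, with the members of the 13 filled. The members stand at the upper end of their lists, as the choice of genes favours. In the list of alpha-glucoside and sucrose use MAL11 reaches −8.32 in SEF1-VP16 while SUC2 has 4.04.

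Other genes of nitrogen use were looked up after the values of the members were seen, so they are given as values without a test. GDH2 (SAKL0E13024g), whose NAD-dependent glutamate dehydrogenase runs in the direction of glutamate breakdown, had −2.90 in SEF1-VP16 and −2.75 in WT, opposite to GDH1/GDH3. The allantoinase gene DAL1 (SAKL0C07832g) had 1.72 in SEF1-VP16 and 2.10 in WT, and DAL2 (SAKL0G18128g), the next step of allantoin use, −1.48 and −1.12. The urea permease gene DUR3 (SAKL0D00132g) had 0.31 and 0.47, beside 3.15 and 3.57 for DUR1,2. Of the genes for use of GABA once taken up, UGA1 (SAKL0H20658g) had −0.32 in SEF1-VP16 and −0.31 in WT, and both loci named UGA2 lay between −1.17 and −0.95, while the permease gene UGA4 was high. Of 2 loci named GAT1, a GATA-type activator of nitrogen genes, SAKL0B01826g had 0.88 and 1.02, and SAKL0E12276g, which lies next to MEP2, had −0.23 and −0.82. INO1 (SAKL0F00396g), for synthesis of inositol, had −4.11 and −3.0, opposite to the inositol transporter gene ITR1.

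By their locus tags the 13 genes lie on 6 chromosomes, 3 each on D, E and H, 2 on C, and 1 each on B and G. None has another of the 13 as its neighbour in tag order. SUC2 was the 6th of 513 genes with a probe from the left end of chromosome B, and YPL272C the 18th of 629 on chromosome E. Of the 26 flanking genes, 24 were tested. Of these, 6 were called higher and 6 lower where labelled YPGly in SEF1-VP16, and 6 higher and 8 lower in WT, with medians of −0.10 in SEF1-VP16 and −0.02 in WT. Beside them, 26.6% of all genes tested were called higher and 19.9% lower in SEF1-VP16, and 27.4% and 20.5% in WT. The neighbours ranged from −4.03 in SEF1-VP16 and −3.68 in WT for a hexose transporter gene named HXT1 (SAKL0D14960g), next to GDH1/GDH3, to 1.5 in SEF1-VP16 and 1.72 in WT for SAKL0E00814g, next to YPL272C.

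The residual SD of the 13 genes, the spread of the 4 arrays about each group mean, had a median of 0.21, beside 0.17 over all genes tested, and 8 of the 13 lay above that. SUC2 and MRH1/YRO2 alone lay above the 99th percentile of all genes (0.54), at 0.72 and 0.56.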

How the data were processed

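The authors hybridised labelled cDNA of each culture to a custom array, scanned it and extracted spots with Agilent Feature Extraction (version 10.5.1.1 in the submitters' processing notes). Per the file headers, the deposited scanner files give a processed signal intensity with the background subtracted. The authors also deposited log2 values scaled to the 75th percentile of each array, which chose the members. Here each level was the log2 processed signal minus the log2 75th percentile of the array. Control spots and flagged outliers were left out. A gene was tested if some group had its brighter probe well above background on each of its arrays. Strains were compared with limma 3.58.1 in R 4.3.3 (no covariates, 4 groups of 4 arrays, Benjamini-Hochberg adjustment over 5266 genes), checked on simulated data. As there were 30 or fewer members, all were named. The members and gene lists were chosen with earlier results of these data known. Names came from the study's ortholog and annotation tables, and 2579 of the genes tested had one. The mean spot signal is not a column of these files, so the normexp alternative used the median spot and background intensities. The arrays' number, 4 a group, limits the precision. The methods' t-test, other scalings, probes and left-out arrays were the alternatives.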

Additional observations from a re-analysis of the deposited data

Results flagged for a closer look

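In 3 of 52 member-and-group sets of 4 arrays, 1 array stood far from the other 3 by Dixon's criterion, which chance alone meets in about 5% of sets. ALD6 in WT labelled YPD was −3.16 on replicate 1, with the others between −3.81 and −3.71. UGA4 was −4.36 on the same array, with the others between −4.75 and −4.72. ITR1 in SEF1-VP16 labelled YPD was −5.05 on replicate 4, with the others between −5.49 and −5.42.

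ALD6 also stood out because all 4 SEF1-VP16 arrays lay above the 4 WT arrays where labelled YPGly (0.34) and below them where labelled YPD (−0.49). The difference between these values was not tested, since it is built from the values that chose the gene. Neither strain difference passed the test on its own on the brighter probe. Where labelled YPD, the other probe alone among the 28 alternative fits called ALD6, lower in SEF1-VP16. Over those fits the estimate ran from −0.61 to −0.34.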

How the results depend on the processing

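The number of members, 13, held with the scanner values, an alternative chosen after seeing the data, with each array's median and with normexp. Quantile normalization gave 16. It was 30 at a threshold of 2.5, 11 at 3.5 and 20 on the dimmer probe, and 13 to 14 when 1 array was left out. Centring on the median moved the median difference between media over all genes by about 0.1, to 0.06 in SEF1-VP16 and 0.04 in WT, and the lowest difference of a member was then 3.08.

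Where labelled YPGly, the count of members called was 1. It was 2 on the dimmer probe, 2 with the 8 arrays of that medium, and 2 by the methods' t-test, unadjusted or adjusted, in each case YPL272C and SUC2. It was 0 to 2 when 1 array was left out. With normexp and with array weights the 1 gene called was SUC2 in place of YPL272C. Where labelled YPD the count was 0. It was 2 with no fold threshold (SAKL0H11770g and GDH1/GDH3), 1 with the median of each array and 2 with quantile normalization. It was 1 with normexp (FSH1, higher), 2 on the dimmer probe (FSH1, higher, and ALD6, lower), and 0 to 2 when 1 array was left out. Averaged over media it was 0, 2 with no fold threshold, 2 on the dimmer probe (FSH1, higher, and YPL272C, lower), and 0 to 1 when 1 array was left out. This average was not run on 8 arrays or by the methods' t-test. The cause of these changes was not tested. Of 572 values of single members between strains under an alternative, 544 kept their side of the threshold, 7 lost a call, 21 gained one, and 18 uncalled values changed sign.

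With the replicate number as a block the counts were 1, 0 and 0. The numbers were not taken as pairing the samples: deviations of same-numbered samples correlated at −0.549 to 0.767 (median 0.134). Signals near background limit SUC2 and YPL272C where labelled YPD, so a call of YPL272C there, as with quantile normalization, is not read as a difference.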
